A study of Homo sapiens with 8 samples.

Results

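A set of 10 transcription factors of the plasma cell and late B cell program were followed in LP-1, a human multiple myeloma cell line, after inhibition of either CBP/EP300 or BET bromodomains. They are IRF4, PRDM1, XBP1, POU2AF1, POU2F2, IKZF1, IKZF3, SPIB, MEF2C and BACH2, chosen by gene symbol for their known roles in B lineage cells. The choice was made with earlier results of these data known, and the study had already reported lower IRF4 with CBP/EP300 inhibition. The members account for 10 of the 33312 genes with a value above 0 in some library. All 10 were measured, and 9 of them were among the 14732 genes whose mean reached 1 RPKM, which were tested. POU2F2, with a mean of 0.713 RPKM, was the member left out of the test. RPKM counts reads per kilobase of transcript, corrected for how many reads the library had, so levels of different genes can be set side by side on this scale.

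Treatment lasted 6 hr and used 2.5 μM SGC-CBP30, an inhibitor of the bromodomains of the coactivators CBP and EP300, or 250 nM CPI203, an inhibitor of the bromodomains of the BET family. Each compound had its own pair of libraries from cells given DMSO, the solvent, for the same time. RNA sequencing therefore gave 8 libraries in 4 groups of 2, all from the same cell line, and no label states which DMSO pair went with which compound, so this was inferred from the style of the library names. The study calls the 2 libraries of a group biological replicates. The p-values set each effect against a spread between replicates that is shared by the 4 groups and drawn toward that of genes of similar level.

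IRF4 is needed for B cells to become antibody-secreting plasma cells and for myeloma cells to survive, and its level rises as B cells differentiate. PRDM1, also known as BLIMP1, shuts down B cell genes, and XBP1 expands the secretory apparatus of the plasma cell. POU2AF1 is a coactivator that works with the octamer-binding factors, among them POU2F2, while IKZF1 and IKZF3 are zinc finger factors of the Ikaros family. SPIB, MEF2C and BACH2 belong to earlier B cell stages, and BACH2 is known to repress PRDM1.

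Depth, estimated from values worth whole reads, was between 34100000 and 34400000 reads for DMSO and between 46800000 and 50150000 for SGC-CBP30 in one experiment, and between 26000000 and 29700000 in the other. The SGC-CBP30 libraries were thus the deepest, and the part of depth in the values of low genes was not tested. Replicates differed with an SD of 0.091 to 0.115 on the log2 scale over 8298 genes with at least 10 RPKM. Of 11 genes listed as plasma cell surface and secretory markers, 10 were tested, and their summed RPKM was between 2295 and 3254 in every library. JCHAIN, listed in the table under its older symbol IGJ, had a mean of 1420 RPKM in the first DMSO pair. Of the other lists, 6 of 7 T and NK cell markers and 6 of 6 myeloid markers stayed under 1 RPKM, with MPO at 0. The summed RPKM was between 0.909 and 3.48 for the T and NK cell list and at most 0.321 for the myeloid list.

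Promoter sequences are shown as examples for 3 of the members whose transcripts fell with SGC-CBP30. They hold short motifs, some of them known for factors of the set. Only matching letters were searched, and binding of these factors was not analysed here. The RefSeq table gave 18 promoters for 8 of the members, all but POU2AF1 and IKZF3. Each sequence is the 250 bases before the start site on the strand of the gene, in build GRCh38.p14, with the motifs in capitals and positions counted back from the start site. The IRF4 promoter (chr6:391502-391751, plus strand) holds a TATA box, TATAAA, at −32 and the Ikaros core TGGGAA on the opposite strand, read as TTCCCA, at −18. The second PRDM1 promoter (chr6:106098691-106098940, plus strand) holds the core TGAGTCA, which AP-1 and BACH factors share, on the opposite strand at −42. The first IKZF1 promoter (chr7:50304466-50304715, plus strand) holds the PRDM1 core GTGAAAG at −44 and the Ikaros core at −32.
IRF4: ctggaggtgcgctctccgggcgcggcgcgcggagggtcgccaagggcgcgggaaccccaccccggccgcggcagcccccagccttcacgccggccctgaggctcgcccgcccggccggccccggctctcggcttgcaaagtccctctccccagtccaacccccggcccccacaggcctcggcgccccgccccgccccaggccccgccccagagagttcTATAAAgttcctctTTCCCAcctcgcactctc
PRDM1: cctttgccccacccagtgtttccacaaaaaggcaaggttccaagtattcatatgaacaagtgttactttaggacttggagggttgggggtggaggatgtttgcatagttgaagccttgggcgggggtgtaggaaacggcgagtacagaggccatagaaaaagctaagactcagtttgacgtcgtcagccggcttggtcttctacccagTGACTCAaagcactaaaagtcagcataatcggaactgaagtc
IKZF1: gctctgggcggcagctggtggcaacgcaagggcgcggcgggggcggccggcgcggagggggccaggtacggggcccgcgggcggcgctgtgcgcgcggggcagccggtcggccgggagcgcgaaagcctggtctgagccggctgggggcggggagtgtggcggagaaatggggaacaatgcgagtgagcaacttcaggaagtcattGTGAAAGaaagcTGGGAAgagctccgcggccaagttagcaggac

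The 7 motifs were searched on both strands of the 18 promoters and of all 35116 promoters in the table. The Ikaros core was found in 5 promoters of the members, in IRF4, XBP1, IKZF1 and MEF2C, and in 20.8% of all promoters. The TATA box was found in 3, in IRF4, IKZF1 and SPIB, and in 10.7% of all. The AP-1 and BACH core was found in 2, in PRDM1 and MEF2C, and in 4.2% of all, and the PRDM1 core in 1, against 3.28% of all. The IRF core AANNGAAA, which can overlap the PRDM1 core and the Ikaros core, was found in 6, in POU2F2, IKZF1 and MEF2C, against 20.3% of all. The octamer ATGCAAAT was found in 1 promoter of MEF2C and in 1.63% of all promoters. The XBP1 core TGACGTGG was found in 0 of the 18 and in 0.612% of all promoters. GC content was 76.0% in the IRF4 promoter, against a median of 58.0% over all promoters.

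With SGC-CBP30, all 9 tested members were lower than with DMSO, and IRF4 had the largest fold change of them, at 0.388 of its DMSO level. Here fell and rose are used of genes with an adjusted p under 0.05 from limma, and called means that the change was also at least 1.5-fold. All 9 fell, where 14.8% of all genes tested fell, and 4 of them, IRF4, POU2AF1, IKZF1 and PRDM1, were called lower, where 3.79% of all genes were. None was called higher, where 3.47% of all genes were. The median log2 fold change of the 9 was −0.57, with a range from −1.36 to −0.33, and that of all genes tested was 0.07. In all 9 members both SGC-CBP30 libraries lay below all 4 DMSO libraries, those of the other experiment included, which held for 14.8% of all genes. The falls of BACH2, SPIB and IKZF3 were the least firm. Without replicate 1 of DMSO, or without replicate 2 of SGC-CBP30, 6 of the 9 members fell and these 3 did not pass. Without replicate 2 of DMSO 7 fell, with BACH2 and SPIB lost, and without replicate 1 of SGC-CBP30 8 fell, with IKZF3 lost. Because whole cultures were sequenced, fewer cells with a transcript and less of it per cell cannot be told apart.

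With CPI203 the members split. Of the 9, 6 fell, where 33.1% of all genes did, and 3 rose, where 31.1% of all genes did. IKZF3, POU2AF1, SPIB and XBP1 were called lower, where 14.4% of all genes were, and BACH2 was called higher, where 13.4% of all genes were. The median log2 fold change of the 9 was −0.57 with a range from −1.80 to 0.72, against −0.02 for all genes. Both CPI203 libraries lay below all 4 DMSO libraries for 6 members, where this held for 34.3% of all genes, and above all 4 for 3, where it held for 32.6%. The effect of SGC-CBP30 differed from that of CPI203 at an adjusted p under 0.05 in 6 of the 9 members, where it did so in 50.3% of all genes. The 6 were IRF4, PRDM1, XBP1, IKZF3, MEF2C and BACH2. The doses of the compounds differ, and each compound was run with its own DMSO pair. Differences between compounds, doses and experiments therefore cannot be told apart here.

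**Figure D1:**
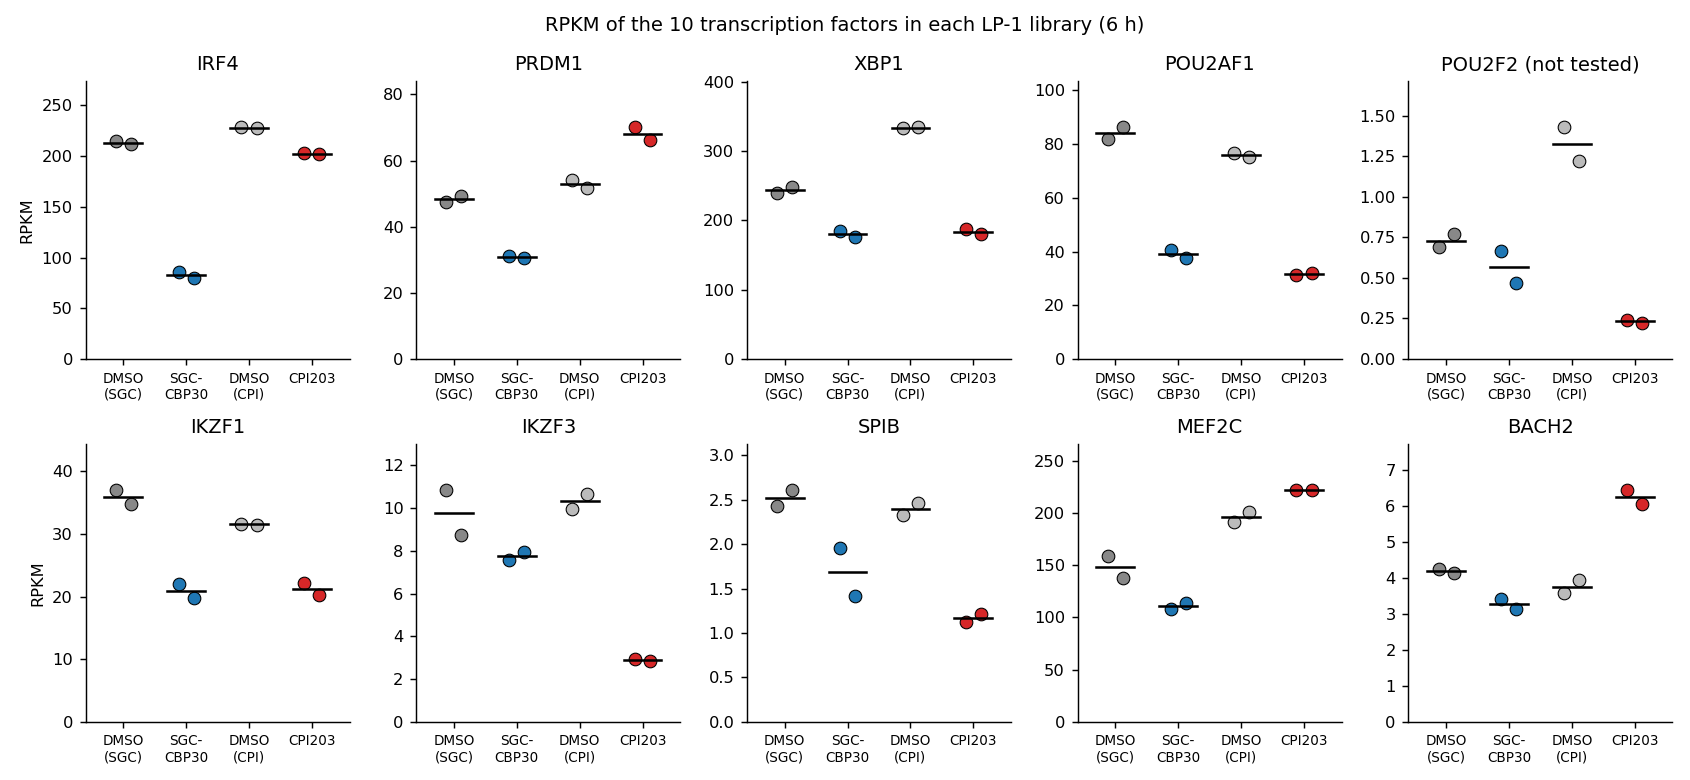
Each panel plots the RPKM (vertical axis, from 0) of 1 transcription factor in the 8 LP-1 libraries, with a point per library and a bar at the mean of the 2 libraries of a group; SPIB is its tested table entry. With SGC-CBP30, IRF4 sits at 86.2 and 79.5 RPKM against 202 to 228 in the other 6 libraries, while IKZF3 is lowest with CPI203, at 2.96 and 2.84 RPKM.

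IRF4 (ENSG00000137265, hg19 chromosome 6, 391738 to 411447) was among the most abundant members. Its level was 215 and 211 RPKM with DMSO and 86.2 and 79.5 RPKM with SGC-CBP30. In the other experiment it was 228 and 228 RPKM with DMSO and 203 and 202 RPKM with CPI203. The SGC-CBP30 libraries thus stood far below all others, and the CPI203 libraries lay just under their own DMSO libraries. IRF4 fell by 1.36 (SE 0.04, adjusted p = 8.65e-08) on the log2 scale with SGC-CBP30, which ranked 76 among all genes ordered from the largest fall. With CPI203 it fell by 0.17 (SE 0.04, adjusted p = 0.00319), and this fall did not pass against all 4 DMSO libraries (adjusted p = 0.0834). The effects of the compounds differed by −1.19 (95% interval −1.32 to −1.07, adjusted p = 4.48e-07).

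PRDM1 (ENSG00000057657, chromosome 6, 106534194 to 106557814) was lower with SGC-CBP30 and higher with CPI203. It stood at 47.4 and 49.2 RPKM with DMSO and 31.1 and 30.7 RPKM with SGC-CBP30, which is 0.639 of the DMSO mean. It stood at 54.2 and 51.7 RPKM with DMSO and 70.0 and 66.3 RPKM with CPI203. In neither experiment did the groups overlap. With SGC-CBP30, PRDM1 fell by 0.64 (SE 0.05, adjusted p = 1.08e-05) on the log2 scale, and it rose by 0.36 (SE 0.05, adjusted p = 6.74e-05) with CPI203, which is a 1.29-fold rise and was not called. The difference between the compounds was −1.01 (95% interval −1.15 to −0.86, adjusted p = 2.48e-06).

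XBP1 (ENSG00000100219, chromosome 22, 29190542 to 29196585) had the highest mean level of the members, at 235 RPKM over the 8 libraries. It stood at 239 and 248 RPKM with DMSO and at 185 and 176 RPKM with SGC-CBP30. In the other experiment it stood at 333 and 334 RPKM with DMSO and at 187 and 180.5 RPKM with CPI203. The treated libraries of both experiments were thus close to each other in level, while the DMSO pairs differed 1.37-fold. XBP1 fell by 0.43 (SE 0.04, adjusted p = 2.44e-05) on the log2 scale with SGC-CBP30, short of 1.5-fold, and by 0.86 (SE 0.04, adjusted p = 5.35e-08) with CPI203. The fall with SGC-CBP30 was the smaller one, by 0.42 (95% interval 0.31 to 0.54, adjusted p = 9.06e-05). Against all 4 DMSO libraries, XBP1 fell by 0.66 with SGC-CBP30 and was called.

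POU2AF1 (ENSG00000110777, chromosome 11, 111222976 to 111326355) was the member called lower with both compounds. Its level was 81.9 and 86.2 RPKM with DMSO and 40.6 and 37.7 RPKM with SGC-CBP30. It was 76.6 and 75.3 RPKM with DMSO and 31.1 and 32.0 RPKM with CPI203. All 4 treated libraries lay far below all 4 DMSO libraries, at 0.466 and 0.416 of the DMSO means. POU2AF1 fell by 1.10 (SE 0.05, adjusted p = 5.39e-07) with SGC-CBP30 and by 1.26 (SE 0.05, adjusted p = 3.52e-08) with CPI203 on the log2 scale. The difference of 0.16 (95% interval 0.01 to 0.32) did not pass, at an adjusted p of 0.0687, but did without replicate 2 of SGC-CBP30 (adjusted p = 0.033).

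POU2F2 (ENSG00000028277, chromosome 19, 42590262 to 42700737), the octamer-binding partner of POU2AF1, was the member with the lowest level. It stood at 0.688 and 0.770 RPKM with DMSO and at 0.664 and 0.471 RPKM with SGC-CBP30. It stood at 1.43 and 1.22 RPKM with DMSO and at 0.243 and 0.222 RPKM with CPI203. The CPI203 libraries were the lowest of all 8, at 0.176 of their DMSO mean, and the DMSO pairs themselves differed 1.81-fold. When no filter on low values was used, POU2F2 fell by 2.10 (adjusted p = 0.00123) on the log2 scale with CPI203, while its value with SGC-CBP30 was −0.33 (adjusted p = 0.414).

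IKZF1 and IKZF3 encode Ikaros and Aiolos, which can pair with each other. IKZF1 (ENSG00000185811, chromosome 7, 50343719 to 50472799) stood at 37.0 and 34.8 RPKM with DMSO and 22.0 and 19.7 RPKM with SGC-CBP30. It stood at 31.5 and 31.5 RPKM with DMSO and 22.1 and 20.3 RPKM with CPI203. The treated libraries of both experiments reached nearly the same level, below all 4 DMSO libraries. IKZF1 fell by 0.78 (SE 0.07, adjusted p = 3.02e-05) with SGC-CBP30 and was called. With CPI203 it fell by 0.57 (SE 0.07, adjusted p = 3.81e-05), a 1.49-fold change just short of the call. Without replicate 1 of CPI203 it fell by 0.63 and was called. The difference of −0.21 (95% interval −0.42 to −0.0019) did not pass, at an adjusted p of 0.0863, but did without replicate 1 of SGC-CBP30 (adjusted p = 0.0359).

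IKZF3 (ENSG00000161405, chromosome 17, 37921197 to 38020441) stood at 10.8 and 8.73 RPKM with DMSO and 7.55 and 7.94 RPKM with SGC-CBP30. It stood at 9.98 and 10.7 RPKM with DMSO and 2.96 and 2.84 RPKM with CPI203. The CPI203 libraries were well below the other 6, and the SGC-CBP30 libraries lay under the lower DMSO library by a small margin. IKZF3 fell by 1.80 (SE 0.11, adjusted p = 4.4e-07) on the log2 scale with CPI203, the largest fall among the members with that compound. With SGC-CBP30 it fell by 0.33 (SE 0.11, adjusted p = 0.033), and without replicate 1 of DMSO its value was −0.17 (adjusted p = 0.235). With the replicate number as a block it did not pass either (adjusted p = 0.0529). The difference between the compounds was 1.47 (95% interval 1.14 to 1.80, adjusted p = 3.53e-05). The ratio of IKZF1 to IKZF3 in RPKM was 3.41 and 3.99 with DMSO and 2.91 and 2.49 with SGC-CBP30. In the CPI203 experiment the ratio was 3.16 and 2.95 with DMSO and 7.46 and 7.15 with CPI203.

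SPIB, an ETS family factor of B cells, is listed under 2 identifiers whose spans overlap on chromosome 19. The entry ENSG00000269404 (50922194 to 50934570) carried nearly all of the signal, while ENSG00000142539 was at most 0.205 RPKM, so how reads were shared between them is uncertain. The tested entry stood at 2.43 and 2.61 RPKM with DMSO and 1.96 and 1.42 RPKM with SGC-CBP30, and at 2.32 and 2.47 RPKM with DMSO and 1.12 and 1.21 RPKM with CPI203. All 4 treated libraries lay below the DMSO libraries, with a wide gap between the SGC-CBP30 libraries. SPIB fell by 0.57 (SE 0.17, adjusted p = 0.0269) with SGC-CBP30 and by 0.98 (SE 0.17, adjusted p = 7.09e-04) with CPI203 on the log2 scale. The difference of 0.41 (95% interval −0.14 to 0.96) did not pass, at an adjusted p of 0.19. Without replicate 2 of SGC-CBP30 the value of SPIB with that compound was −0.34 (adjusted p = 0.211), and without replicate 1 it was −0.79 and was called.

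MEF2C (ENSG00000081189, chromosome 5, 88013974 to 88199922), a MADS box factor that acts downstream of the B cell receptor, was abundant in LP-1. It stood at 159 and 138 RPKM with DMSO and 108 and 113 RPKM with SGC-CBP30. It stood at 191 and 201 RPKM with DMSO and 222 and 222 RPKM with CPI203. The compounds moved it to opposite sides of their DMSO libraries, and the DMSO pairs differed 1.32-fold. MEF2C fell by 0.42 (SE 0.06, adjusted p = 6.15e-04) with SGC-CBP30 and rose by 0.18 (SE 0.06, adjusted p = 0.0225) with CPI203, neither reaching 1.5-fold. The rise did not pass without DMSO replicate 1 of the CPI203 experiment (adjusted p = 0.123), nor without CPI203 replicate 1 (adjusted p = 0.0713) or replicate 2 (adjusted p = 0.0707). The difference between the compounds was −0.60 (95% interval −0.79 to −0.41, adjusted p = 2.71e-04).

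BACH2 (ENSG00000112182, chromosome 6, 90636247 to 91006627) was the member called higher with CPI203. It stood at 4.26 and 4.13 RPKM with DMSO and 3.41 and 3.14 RPKM with SGC-CBP30. It stood at 3.57 and 3.94 RPKM with DMSO and 6.45 and 6.06 RPKM with CPI203. The CPI203 libraries were the highest of the 8 and the SGC-CBP30 libraries the lowest. BACH2 rose by 0.72 (SE 0.10, adjusted p = 1.43e-04) on the log2 scale with CPI203, a 1.65-fold rise, and fell by 0.35 (SE 0.10, adjusted p = 0.0205) with SGC-CBP30. The difference was −1.07 (95% interval −1.39 to −0.75, adjusted p = 1.97e-04). BACH2 and PRDM1, the gene it is known to repress, thus both rose with CPI203 and both fell with SGC-CBP30. The fall of BACH2 was among the least firm, and it did not pass against all 4 DMSO libraries (adjusted p = 0.11). The ratio of PRDM1 to BACH2 in RPKM was 11.1 and 11.9 with DMSO, 9.13 and 9.77 with SGC-CBP30, 15.2 and 13.1 with DMSO, and 10.9 and 10.9 with CPI203.

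**Figure D2:**
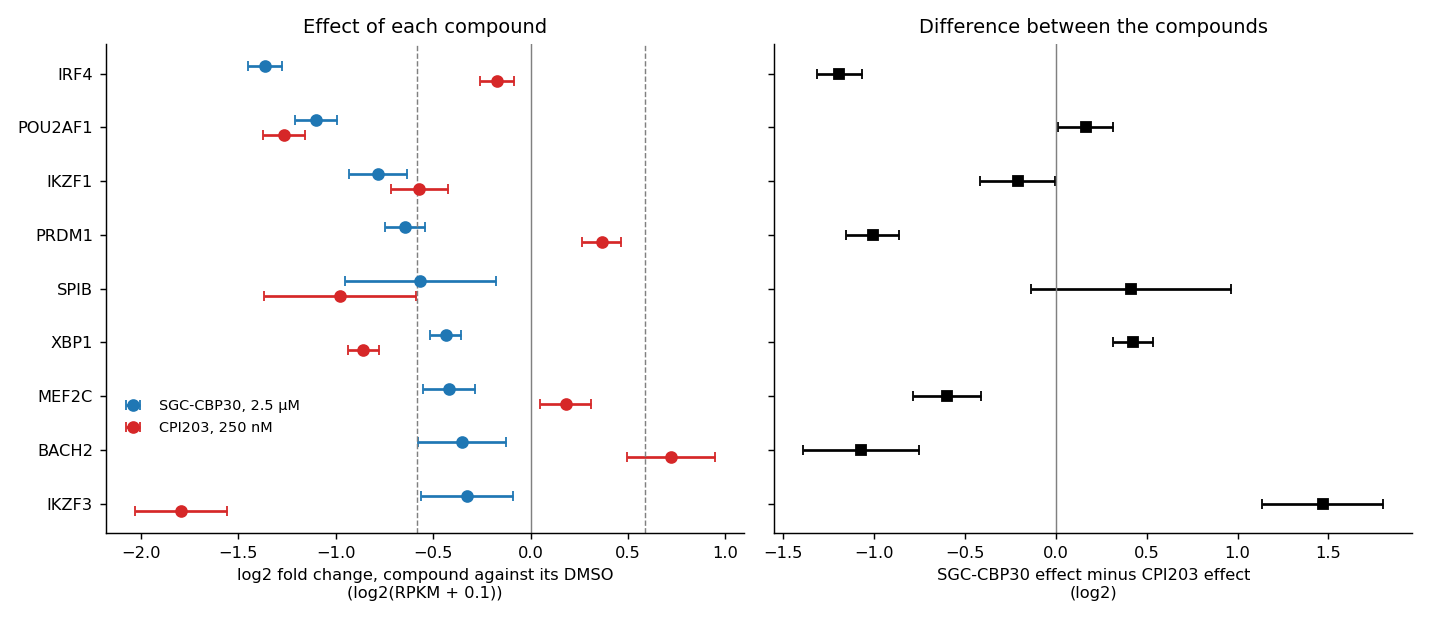
The left panel plots the log2 fold change of each tested member against its own DMSO libraries with its 95% interval, for SGC-CBP30 (blue) and CPI203 (red), with dashed lines at 1.5-fold; the right panel plots the SGC-CBP30 effect minus the CPI203 effect with its 95% interval. All 9 SGC-CBP30 points lie left of 0, from −1.36 to −0.33, while PRDM1, MEF2C and BACH2 lie right of 0 with CPI203.

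Ordered by mean RPKM over the 8 libraries, the tested members ran from XBP1 at 235, IRF4 at 182 and MEF2C at 169 through POU2AF1 at 57.7, PRDM1 at 50.1 and IKZF1 at 27.4 to IKZF3 at 7.69, BACH2 at 4.37 and SPIB at 1.94. The order changed with treatment, since MEF2C lay above XBP1 and IRF4 in both CPI203 libraries and below XBP1 in the DMSO libraries. With SGC-CBP30, MEF2C at 108 and 113 RPKM lay above IRF4 at 86.2 and 79.5 RPKM. Between neighbours in this order, POU2AF1 and PRDM1 did not keep their places with CPI203, where PRDM1 was the higher. The ratio of IRF4 to PRDM1 was 4.54 and 4.29 with DMSO and 2.77 and 2.59 with SGC-CBP30. It was 4.21 and 4.41 with DMSO and 2.90 and 3.04 with CPI203, so the ratio was lower with either compound.

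The 5 genes whose pattern over the 8 libraries was most like that of IRF4 were taken from the 8298 genes averaging 10 RPKM or more. Likeness was the Pearson correlation of log2 values, each minus the mean of the DMSO libraries of its experiment. They were BLVRA, a biliverdin reductase, with a correlation of 0.998, SPTBN1, a spectrin, with 0.997, and HLA-DRB5, ARHGEF2 and PDE7A with 0.996. HLA-DRB5 has near-identical copies in the HLA class II region, so its values are uncertain. Its mean with DMSO was 76.5 RPKM in one experiment and 31.3 RPKM in the other, and with SGC-CBP30 it was 39.2 RPKM, above the second DMSO mean. The DMSO means of PDE7A were 51.7 and 36.7 RPKM, and with SGC-CBP30 it was 33.5 RPKM, close to the second. Those of SPTBN1 were 51.6 and 41.2 RPKM, with 28.2 RPKM with SGC-CBP30. The DMSO means were closer for BLVRA, at 61.9 and 55.1 RPKM, and ARHGEF2, at 127 and 125 RPKM. These libraries share their treatments, so the values are a description of a shared fall with SGC-CBP30 and a level near that of DMSO with CPI203. BLVRA fell by 0.64 with SGC-CBP30 (adjusted p = 3.04e-06), from 61.9 to 39.6 RPKM on average, and its value with CPI203 was −0.08 (adjusted p = 0.0833). Among the members, MEF2C had a correlation of 0.864 with IRF4 and ranked 427, PRDM1 had 0.852, IKZF1 0.812, POU2AF1 0.598 and XBP1 0.301.

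**Figure D3:**
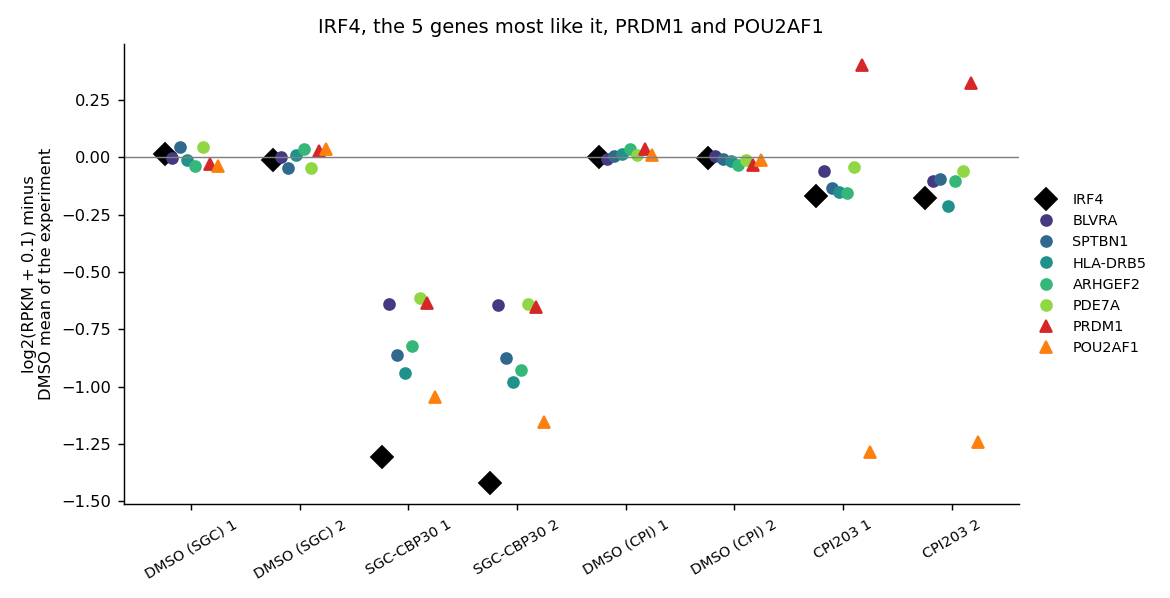
The vertical axis is log2(RPKM + 0.1) minus the mean of the 2 DMSO libraries of the same experiment, and each column is 1 of the 8 libraries, with IRF4 as black diamonds, the 5 genes most like it as circles, and PRDM1 and POU2AF1 as triangles. IRF4 and the 5 genes are low in the SGC-CBP30 columns and close to 0 in the CPI203 columns, while POU2AF1 is low in both and PRDM1 is above 0 with CPI203.

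Genes near the called members were examined to see whether neighbours moved along with them. Within 250 kb of the 8 members called with either compound lay 31 tested genes, of which 2 were called with SGC-CBP30 and 11 with CPI203. Over all genes tested, 7.26% were called with SGC-CBP30 and 27.8% with CPI203 in either direction, so the neighbours as a group were near these shares. DUSP22, a phosphatase gene 40.4 kb from IRF4, went from 127 to 86.2 RPKM with SGC-CBP30 and fell by 0.56 (adjusted p = 4.69e-06), short of 1.5-fold, and it fell by 0.33 (adjusted p = 1.96e-05) with CPI203. EXOC2, 73.7 kb away on the other side of IRF4, had values of 0.05 (adjusted p = 0.497) and −0.03 (adjusted p = 0.727). A gene known by a clone name, at 106548014 to 106548468 on chromosome 6 and so within the span of PRDM1, fell by 1.09 (adjusted p = 0.00427) with SGC-CBP30. No source states that counting used the strand, so its reads and those of PRDM1 cannot be told apart. Near IKZF3, 4 of 12 neighbours were called lower with CPI203, where 14.4% of all genes were. RP11-94L15.2, 1.1 kb away, fell by 2.00, ERBB2 fell by 0.76 and THRA fell by 0.72. NR1D1, 228.6 kb away, fell by 2.86. PGAP3 rose by 0.67 with SGC-CBP30. The spans of THRA and NR1D1 overlap, as do those of ERBB2 and PGAP3, so how their reads were shared is uncertain.

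Some neighbours of members that fell were called higher with CPI203. FIGNL1, 39.0 kb from IKZF1, rose by 1.09, SIK2, 146.8 kb from POU2AF1, rose by 0.72, and CCDC117, 5.3 kb from XBP1, rose by 0.68. Also near XBP1, CHEK2 fell by 0.63 and ZNRF3 fell by 0.87. Near BACH2, CASP8AP2 rose by 0.60 and MDN1 fell by 1.01. None of the 4 neighbours of SPIB was called with either compound.

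**Figure D4:**
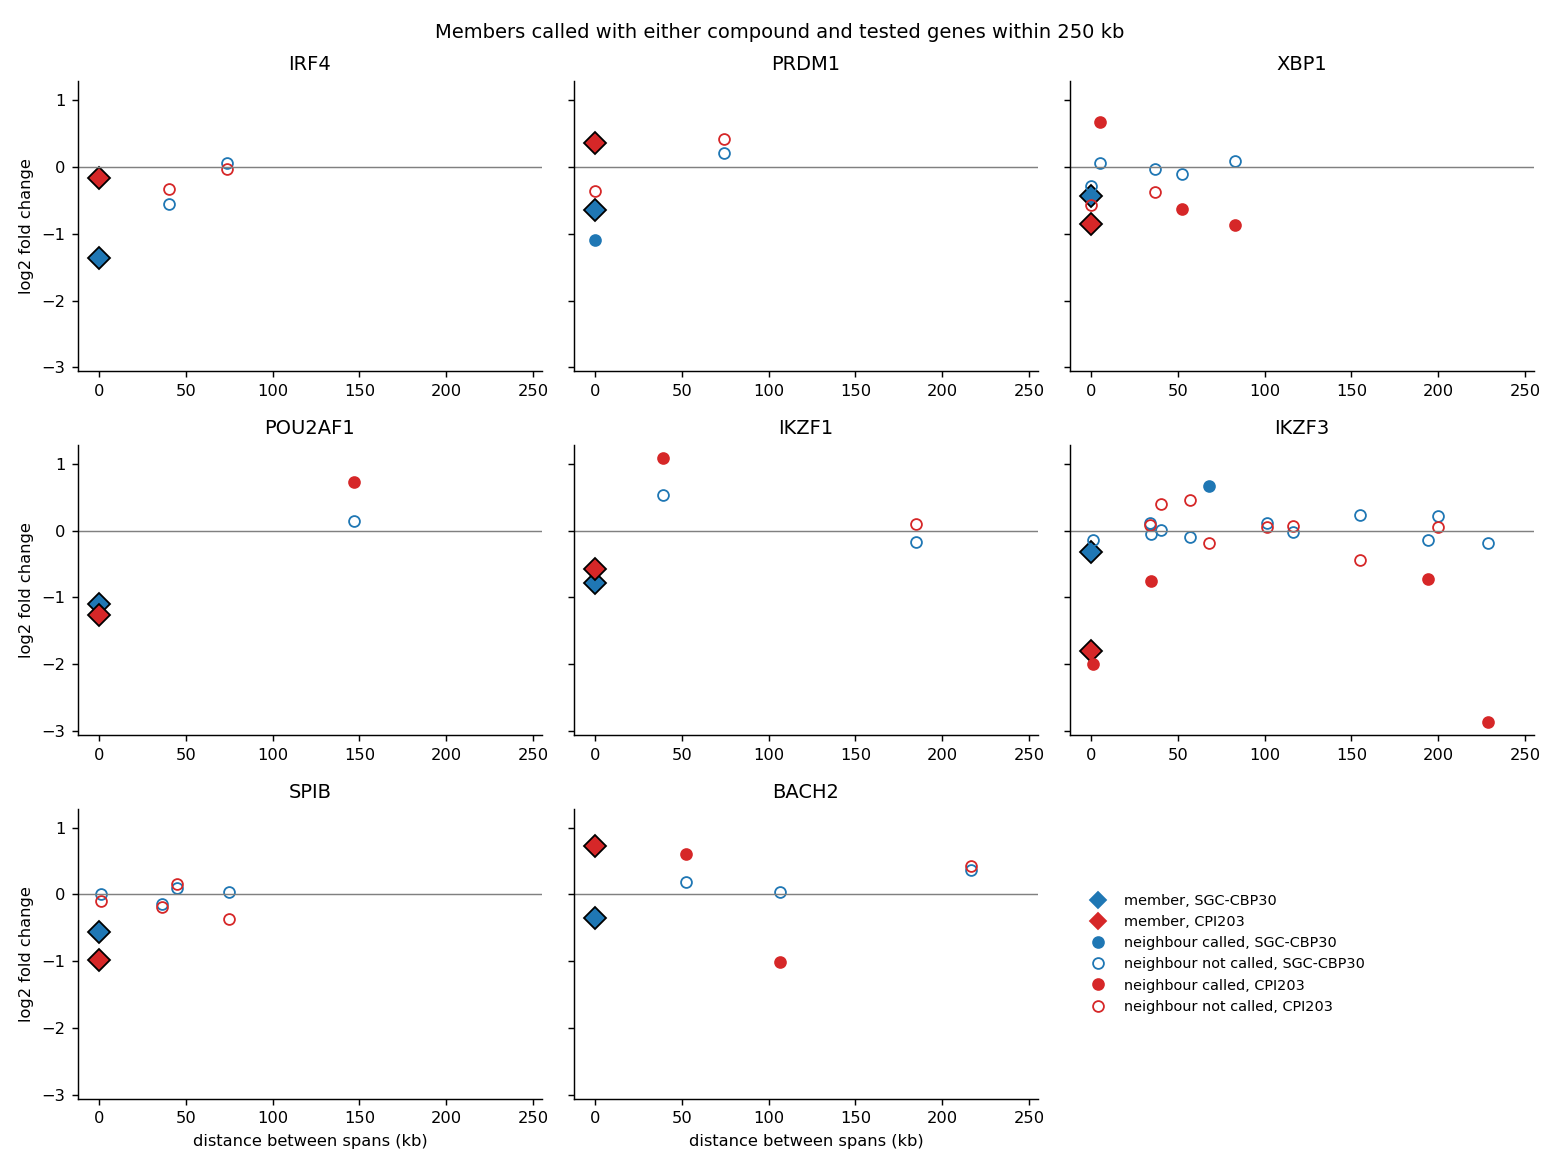
Each panel plots the log2 fold change (vertical axis) of 1 member, drawn as diamonds at 0, and of the tested genes within 250 kb against the distance between their spans in kb, in blue for SGC-CBP30 and red for CPI203; filled circles are called neighbours. IRF4 at −1.36 with SGC-CBP30 stands below its neighbours DUSP22 at −0.56 and EXOC2 at 0.05.

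Other transcription factors of the B cell to plasma cell switch were examined beside the members. Of 12 listed, 8 were tested, PAX5 was at 0, and BCL6 and EBF1 stayed under 1 RPKM. With SGC-CBP30, CIITA, the master activator of HLA class II genes, fell by 1.96 (adjusted p = 5.22e-07) and ID3, an inhibitor of E proteins, rose by 1.42 (adjusted p = 3.31e-06), and both were called. With CPI203, CIITA fell by 2.42, BCL11A fell by 1.02 and TCF3, an E protein, fell by 0.73, while ID2 rose by 0.79. Of the 8, 1 was called lower and 1 higher with SGC-CBP30, where 3.79% and 3.47% of all genes were. With CPI203, 3 were called lower and 1 higher, where 14.4% and 13.4% of all genes were. The DMSO levels of CIITA and ID3 differed between the experiments, at 52.8 and 15.8 RPKM for CIITA and 6.52 and 16.4 RPKM for ID3, and the part of this in their changes was not tested. The medians were −0.23 with SGC-CBP30 and 0.14 with CPI203.

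Paralogs of the members did not follow their relatives in every case. Of 12 listed, 8 were tested, and SPI1 and POU2F3 stayed under 1 RPKM, with SPIC at 0. IRF8, the closest relative of IRF4, stood at a mean of 2.34 RPKM with DMSO and 1.69 RPKM with SGC-CBP30 (adjusted p = 0.084). It went from 1.85 to 0.295 RPKM with CPI203 and fell by 2.31 on the log2 scale (adjusted p = 3.61e-06). IKZF4 rose by 0.65 with SGC-CBP30 and fell by 0.99 with CPI203. IKZF2 fell by 0.58 (adjusted p = 0.043) with SGC-CBP30 and by 0.79 with CPI203, as IKZF1 fell with both. Both were low, with group means of 0.677 to 2.85 RPKM for IKZF4 and 1.43 to 2.66 RPKM for IKZF2. MEF2D fell by 0.53 (adjusted p = 5.22e-05) with SGC-CBP30, as MEF2C did. It also fell by 0.35 (adjusted p = 1.5e-04) with CPI203, where MEF2C rose. BACH1 rose by 0.67 (adjusted p = 5.46e-05) with CPI203, the compound with which BACH2 rose. Of the 8, 0 were called lower and 1 higher with SGC-CBP30, where 3.79% and 3.47% of all genes were. With CPI203, 3 were called lower and 1 higher, where 14.4% and 13.4% of all genes were. The medians of the list were −0.04 and −0.32.

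Secretory pathway genes listed as XBP1-dependent were examined beside XBP1, and all 23 listed were tested. The list also holds ERN1 and ATF6, which act upstream of XBP1 rather than as its targets. Whether the listed genes depend on XBP1 in LP-1, and the activity of XBP1 itself, were not tested. With SGC-CBP30, 7 fell and 2 rose, where 14.8% of all genes fell and 25.6% rose. With that compound 0 were called, where 7.26% of all genes were. With CPI203, 8 fell and 6 rose, where 33.1% of all genes fell and 31.1% rose. With CPI203, SDF2L1, an endoplasmic reticulum chaperone partner, fell by 0.86 and SEL1L, of the degradation machinery of that compartment, fell by 0.65. These 2 of the 23 were called lower and 0 higher, where 14.4% and 13.4% of all genes were. The medians were 0.01 with SGC-CBP30 and −0.01 with CPI203, against −0.43 and −0.86 for XBP1.

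Among the plasma cell markers, 6 of 10 fell with SGC-CBP30 and 0 were called, while all 10 fell with CPI203 and 4 were called. Over all genes, 14.8% fell and 3.79% were called lower with SGC-CBP30, and 33.1% fell and 14.4% were called lower with CPI203. With CPI203, FCRL5 fell by 2.51 and TNFRSF17, the receptor also known as BCMA, fell by 2.40. FCRL5 was a low gene, at a mean of 1.91 RPKM with DMSO and 0.253 RPKM with CPI203, while TNFRSF17 went from 142 to 26.9 RPKM. SLAMF7 fell by 1.90 and SDC1, which encodes a syndecan, fell by 1.55. TNFRSF17 fell by 0.45 (adjusted p = 1.05e-04) with SGC-CBP30, short of 1.5-fold. The medians were −0.20 and −0.54. Of 13 B cell genes that plasma cells silence, 8 stayed under 1 RPKM or at 0, with MS4A1 among them. BLK, a B cell kinase, fell by 1.64 with SGC-CBP30 and fell by 1.78 with CPI203, and was called with both. With CPI203, BLNK fell by 2.67, CD79B fell by 0.88, CR2 fell by 0.62 and CD72 rose by 1.09. With that compound, 4 of the 5 tested genes were called lower and 1 higher, where 14.4% and 13.4% of all genes were. CD72 averaged 0.936 and 0.645 RPKM in the DMSO pairs, so it reached the 1 RPKM filter only through its treated libraries. The medians over the 5 tested genes were −0.28 and −0.88.

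Cereblon, the product of CRBN, is the ubiquitin ligase subunit through which drugs of the thalidomide class degrade the IKZF1 and IKZF3 proteins. CRBN rose by 0.34 (adjusted p = 0.00111) with SGC-CBP30, short of 1.5-fold, and its value with CPI203 was −0.03 (adjusted p = 0.636). Of the 5 ligase genes tested, CUL4A fell by 0.64 with CPI203 and was the 1 gene called with either compound. Over all genes, 7.26% were called with SGC-CBP30 and 27.8% with CPI203. Protein levels were not analysed here.

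**Figure D5:**
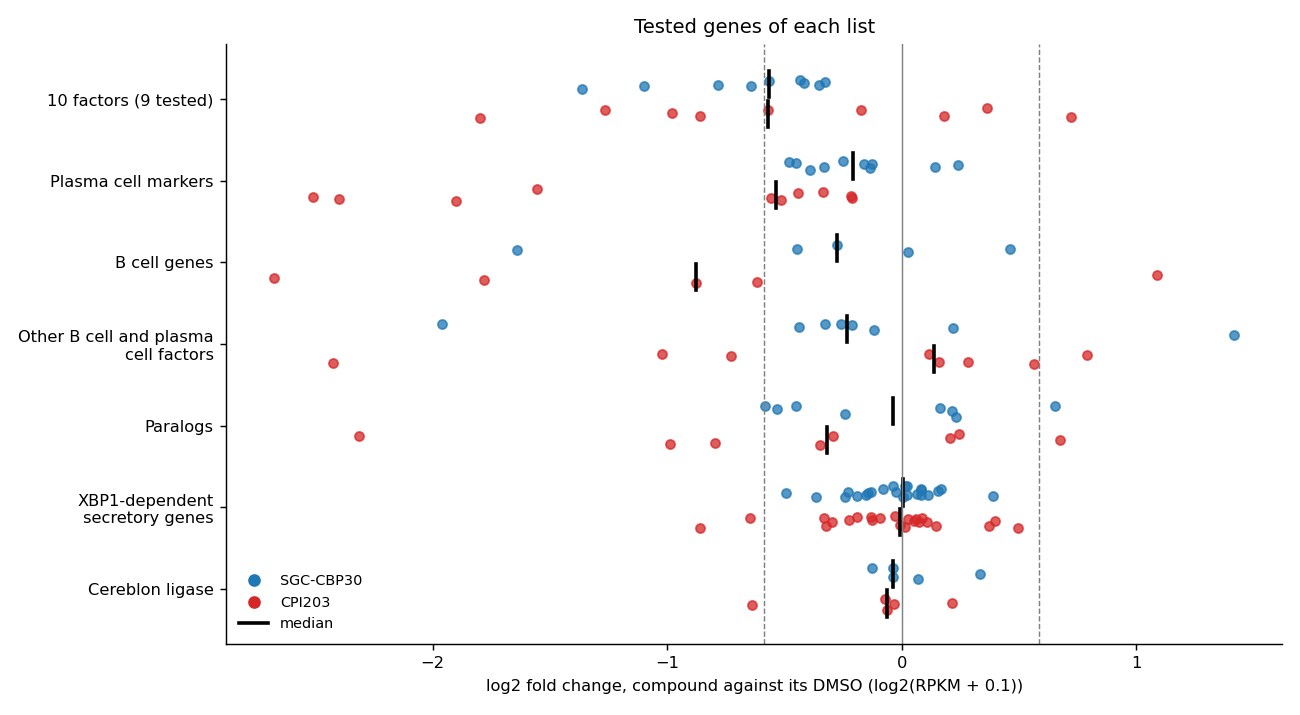
Each point is the log2 fold change of a tested gene against its own DMSO libraries, by list, in blue for SGC-CBP30 and red for CPI203, with black bars at the medians and dashed lines at 1.5-fold. The medians of the 9 members are −0.57 with either compound, and those of the 23 genes listed as XBP1-dependent are 0.01 and −0.01.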

How the data were processed

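RNA from 8 LP-1 libraries was sequenced and mapped by a provider, and the authors deposited 1 RPKM value per gene and library. The submitters' processing notes name TopHat 1.4.1, Cufflinks and hg19, with no role stated; the annotation release is not given in the sources used here. Gene symbols and positions were those deposited with the table. The table also holds 24 columns of other samples, which were not used. Its 63129 genes include 27 that lack a value in some library and were dropped, and the test covered 14732 genes that averaged 1 RPKM or more.

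The deposited RPKM values were converted here to log2(RPKM + 0.1), a scale that understates changes of low genes, and fitted over all 8 libraries with limma 3.58.1 in R 4.3.3 (4 group means, eBayes with an intensity trend, Benjamini-Hochberg adjustment over all genes tested, 4 residual degrees of freedom). Intervals and SE are from this fit. For a single gene, an exact permutation test of 2 against 2 libraries cannot give a p below 0.333, so none was used. The script was tested on simulated data. Depth was estimated from low values that fall on whole reads; 60.9% to 72.7% of those values were whole within 0.1 of a read, so no count test was run.

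Named were the 10 members; from each list up to 4 called genes per compound with the largest change; tested genes within 250 kb of a called member, of which those called and those of IRF4 are given; and the 5 genes most like IRF4. CR2 with CPI203 was named beyond this limit of 4. JCHAIN, CRBN, MEF2D, and IRF8, IKZF2 and TNFRSF17 with SGC-CBP30, and comparisons of DMSO levels, were picked after their values were seen. Members and lists were chosen with earlier results of these data known. Motifs were searched in RefSeq promoters of GRCh38.p14. Alternatives covered quantile normalization, median scaling, a pseudocount of 1, a filter at 5 RPKM or none, a control group of all 4 DMSO libraries, a block for the replicate number, separate fits, a fit with no trend, and fits that leave out a library. Chosen after seeing the data were the sum of both SPIB entries and a block with crossed numbers.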

Additional observations from a re-analysis of the deposited data

How the results depend on the processing

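No member changed direction under any alternative, and none that was called was lost while it was tested. Smaller changes did not all pass. With no filter, 7 members fell with SGC-CBP30, with IKZF3 (adjusted p = 0.128) and SPIB (adjusted p = 0.0889) lost. In the fit with no trend 8 fell, with IKZF3 lost (adjusted p = 0.055). The rise of MEF2C with CPI203 did not pass in either (adjusted p = 0.138 and 0.0837). With the filter at 5 RPKM, 3 members were called with CPI203, since BACH2 and SPIB were no longer tested. With each library left out in turn, 4 to 5 members were called with SGC-CBP30 and 5 to 6 with CPI203, 6 to 9 fell with SGC-CBP30, 6 fell and 2 to 3 rose with CPI203, and 6 to 7 differed between the compounds. Against all 4 DMSO libraries, 6 members were called with SGC-CBP30, with MEF2C and XBP1 added, and 7 fell. This control mixes the experiments, and the DMSO means of MEF2C and XBP1 were 1.32-fold and 1.37-fold higher in the CPI203 experiment. Median scaling and quantile normalization called 5 with SGC-CBP30, with SPIB added. The share of higher genes among all genes called with SGC-CBP30 was 47.8%, and 32.5% after median scaling, 32.4% after quantile normalization, 34.8% with a pseudocount of 1 and 36.2% with the filter at 5 RPKM. The sum of both SPIB entries changed no count.

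With the replicate number as a block, 4 members were called with SGC-CBP30, 5 with CPI203 and 6 differed; 8 fell with SGC-CBP30, since IKZF3 did not pass, and with CPI203 6 fell and 3 rose. Deviations of libraries with the same number correlated at −0.172 and −0.039 over 8298 genes, so the numbers were not taken as pairing, although the study speaks of paired DMSO controls without saying how libraries were paired. Crossed numbers in the SGC-CBP30 experiment left 4 called and 9 lower. The causes of these shifts were not tested.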

Other observations

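The DMSO pairs of the experiments differed in some B lineage genes by more than in most members. The mean of CIITA with DMSO was 52.8 RPKM in the SGC-CBP30 experiment and 15.8 RPKM in the CPI203 experiment, and with SGC-CBP30 it was 13.5 RPKM. BLK stood at 9.78 and 2.66 RPKM with DMSO, and at 3.06 RPKM with SGC-CBP30. BLNK stood at 2.59 and 6.01 RPKM with DMSO, and at 2.12 RPKM with SGC-CBP30, which is 0.352 of the DMSO level of the other experiment. ID3 stood at 6.52 and 16.4 RPKM with DMSO, and at 17.6 RPKM with SGC-CBP30. For CIITA, BLK and ID3, but not BLNK, the SGC-CBP30 level was thus between 0.854 and 1.15 of the DMSO level of the other experiment, where for IRF4 the DMSO means were 213 and 228 RPKM and the SGC-CBP30 mean was 82.8 RPKM. The difference between the DMSO pairs was not tested, and its part in the changes of CIITA, BLK and ID3 was not tested.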
